A study of Mus musculus with 12 samples.

Results

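The citric acid cycle enzymes described here are the products of 9 nuclear genes, Cs, Idh2, Idh3a, Idh3b, Ogdh, Dlst, Suclg1, Fh1 and Mdh2, which were taken by symbol from the 22584 genes counted in isolated mouse cardiomyocytes. All 9 were found, and all 9 were among the 15004 genes that passed the filter on low counts. Polyadenylated RNA was sequenced from cardiomyocytes of wild-type C57BL6 mice in 12 libraries, 3 in each of 4 groups. In the CKD JV001 group, mice had AngII, high salt diet and uninephrectomy, which the study uses as its model of chronic kidney disease, for 12 weeks and were injected with JV001. The CKD saline group had the same model with saline injection, and no duration is stated for it. The sham JV001 group had a sham operation with JV001, and the sham saline group a sham operation with saline, both for 12 weeks. JV001 is known here only by this code, and the labels state no age, sex or pooling of animals. Nothing in the labels says that the libraries of a group came from separate animals. The p-values here therefore set differences against spread among libraries, and that spread may be technical.

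The citric acid cycle runs in the mitochondrial matrix, where acetyl-CoA from fatty acids, pyruvate and ketone bodies joins oxaloacetate and is oxidised to carbon dioxide. The electrons go to NADH and FADH2 and from there to the respiratory chain, which supplies most of the ATP that a beating heart uses. Cardiomyocytes are packed with mitochondria, so the mRNAs of these enzymes are abundant in heart tissue. The genes were ordered here as the reactions run. Cs makes citrate, Idh2 and the Idh3 complex oxidise isocitrate, Ogdh and Dlst are subunits of the alpha-ketoglutarate dehydrogenase complex, Suclg1 is a subunit of succinyl-CoA ligase, Fh1 hydrates fumarate, and Mdh2 regenerates oxaloacetate.

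The promoter windows of the members are shown because their mRNAs varied together, as the values that follow show. RefSeq gave a window of 250 bases before to 50 bases after a start site for 8 of the 9 genes, 13 windows in all, of which 6 are of Ogdh and 1 of each other gene. These windows are on GRCm38.p6, which is not the build of the counts, GRCm39, so they were matched by symbol only. Idh3a had no entry. One of the Ogdh windows (chr11:6292308-6292607, plus strand) and the Dlst window (chr12:85110583-85110882, plus strand) hold a match to a searched motif, which is in capitals, and Cs (chr10:128337477-128337776, plus strand) is a member whose level relative to the others separated CKD from sham libraries. The windows read, from 5′ to 3′:
Ogdh: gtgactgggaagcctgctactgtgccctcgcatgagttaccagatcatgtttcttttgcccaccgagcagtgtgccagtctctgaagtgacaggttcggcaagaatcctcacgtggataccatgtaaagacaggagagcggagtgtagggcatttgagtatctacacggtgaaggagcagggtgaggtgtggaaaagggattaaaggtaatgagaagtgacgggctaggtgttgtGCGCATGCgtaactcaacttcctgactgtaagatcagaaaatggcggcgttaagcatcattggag
Dlst: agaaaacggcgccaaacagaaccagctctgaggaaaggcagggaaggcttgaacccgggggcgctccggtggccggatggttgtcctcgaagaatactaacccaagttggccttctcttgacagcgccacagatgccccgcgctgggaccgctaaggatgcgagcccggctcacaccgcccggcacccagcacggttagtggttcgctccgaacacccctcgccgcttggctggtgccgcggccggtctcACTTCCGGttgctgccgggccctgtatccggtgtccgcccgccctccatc
Cs: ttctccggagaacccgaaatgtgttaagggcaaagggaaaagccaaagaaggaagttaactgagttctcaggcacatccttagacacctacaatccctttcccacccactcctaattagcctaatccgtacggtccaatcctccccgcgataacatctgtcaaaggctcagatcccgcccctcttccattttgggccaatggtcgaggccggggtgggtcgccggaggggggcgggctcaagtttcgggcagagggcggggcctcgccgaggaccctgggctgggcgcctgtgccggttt

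Both strands were searched for 3 motifs, TCAAGGTCA of the oestrogen-related receptors, GCGCATGC of NRF1 and CCGGAAGT of the ETS factors, which include GABP. These factor families are known for driving nuclear genes of mitochondrial proteins. The receptor motif was in the windows of 0 of the 8 members, against 0.466% of the 27025 genes in the table. The NRF1 core was in 1 of the 8, Ogdh, against 3.05% of all genes, where 2 of its 6 windows held it and 4 had no match. These 2 overlap and share the match, whose first base lies at position -15 from the start of the window shown and at -36 from that of the other. The ETS core was in 1 of the 8, Dlst, against 4.31% of all genes, on the reverse strand as ACTTCCGG. A match is a description of letters in these windows and not a site of binding.

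The 12 libraries held 25233561 to 37000337 counted reads. Ventricular cardiomyocyte markers (12 genes, among them Myh6, Tnnt2 and Ryr2) summed to between 28121 and 113347 CPM (read counts scaled to a common library size), and none of the 12 was at 0 in any library. Library 3 of both CKD groups stood apart from the other libraries of its group. The mean ventricular marker level was 10.41 log2 CPM in CKD JV001 library 3, against 11.72 and 11.74 in libraries 1 and 2 of that group. In CKD saline it was 11.43 in library 3, against 12.36 and 12.37. The sham saline group was not uniform either, since its library 1 had 12.03 for these markers while libraries 2 and 3 had 12.56 and 12.42. A chi-square between the counts of 2 libraries, averaged over genes, gave 283.6 and 250.2 for sham saline library 1 with libraries 2 and 3. Between libraries 2 and 3 of that group it gave 30.9. For CKD saline library 3 with libraries 1 and 2 it gave 217.0 and 213.8. Between the CKD groups, the deviations of same-numbered libraries from their group means correlated over genes at 0.296, 0.289 and 0.492. No other pair of groups had 3 such correlations above 0.1. The deviations within a group depend on each other, and library 3 stood apart in both CKD groups. The correlations therefore cannot decide whether libraries of the same number are pairs.

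Citrate synthase, encoded by Cs, is the enzyme that is often assayed as a measure of mitochondrial content. Cs had 774, 756 and 401 CPM in CKD JV001 libraries 1, 2 and 3, against 1307, 1320 and 748 CPM in CKD saline libraries 1, 2 and 3. It had 1361, 1270 and 1366.5 CPM in sham JV001, against 1183, 1638 and 1529 CPM in sham saline. CKD JV001 libraries 1 and 2 lay just above CKD saline library 3, so the CKD groups overlapped, whereas each CKD JV001 library lay below the CKD saline library of the same number.

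Isocitrate is oxidised by an NADP-linked and an NAD-linked enzyme. Idh2, the NADP-linked mitochondrial isocitrate dehydrogenase, had 1327, 1283 and 495 CPM in CKD JV001, against 2072, 2062 and 1083 CPM in CKD saline, 2023, 1744 and 1959 CPM in sham JV001 and 1629, 2426 and 2021 CPM in sham saline. Idh3a, the catalytic subunit of the NAD-linked enzyme, had 368, 369 and 179 CPM in CKD JV001, against 599.6, 604 and 319 CPM in CKD saline, 496 to 552 CPM in sham JV001 and 476 to 639.9 CPM in sham saline. Idh3b, its regulatory beta subunit, had 560.1, 547 and 269.5 CPM in CKD JV001, against 841, 853 and 494 CPM in CKD saline, 693 to 765 CPM in sham JV001 and 677 to 888 CPM in sham saline. In all 3 genes the lowest of the 12 libraries was CKD JV001 library 3 and the next lowest was CKD saline library 3.

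The alpha-ketoglutarate dehydrogenase complex is a control point of the cycle, with Ogdh as the decarboxylating subunit and Dlst as the succinyl transferase of the core. Ogdh had 1606, 1646 and 769.5 CPM in CKD JV001, against 2716, 2699 and 1427 CPM in CKD saline, 2573, 2307 and 2497 CPM in sham JV001 and 2279, 2928 and 2903 CPM in sham saline. Dlst had 435, 460.2 and 235 CPM in CKD JV001, against 719, 722 and 413 CPM in CKD saline, 613 to 669.6 CPM in sham JV001 and 584 to 806 CPM in sham saline. The log2 FPKM (fragments per kilobase of gene length, scaled to library size) of Ogdh minus that of Dlst was 0.24 to 0.42 in CKD JV001, against 0.32 to 0.45 in CKD saline, 0.43 to 0.56 in sham JV001 and 0.40 to 0.50 in sham saline. The CKD JV001 and sham JV001 ranges did not overlap, by a narrow gap (at most 0.420 against at least 0.433), and the others did. No share over all genes was computed for this difference, and other pairs of enzymes were compared in the same way.

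The last steps of the cycle followed. Suclg1, the alpha subunit that every succinyl-CoA ligase shares, had 246, 232 and 121 CPM in CKD JV001, against 393, 394.5 and 230.3 CPM in CKD saline, 333.5 to 357 CPM in sham JV001 and 305 to 402 CPM in sham saline. Fh1, fumarate hydratase, had 296, 292 and 148 CPM in CKD JV001, against 461, 468 and 255.5 CPM in CKD saline, 397.5 to 427 CPM in sham JV001 and 379.6 to 486 CPM in sham saline. Mdh2, mitochondrial malate dehydrogenase, had 848, 831 and 436 CPM in CKD JV001, against 1283, 1333 and 744 CPM in CKD saline, 1118 to 1179 CPM in sham JV001 and 1092 to 1431 CPM in sham saline. For each of the 9 genes, all 3 CKD JV001 libraries were below the same-numbered CKD saline library and below every sham library of either treatment. Against sham JV001 alone, 20.1% of all genes were lower with no overlap, and no share was computed for the whole pattern. The 9 genes varied together over the libraries, so these are not 9 separate results.

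**Figure D1:**
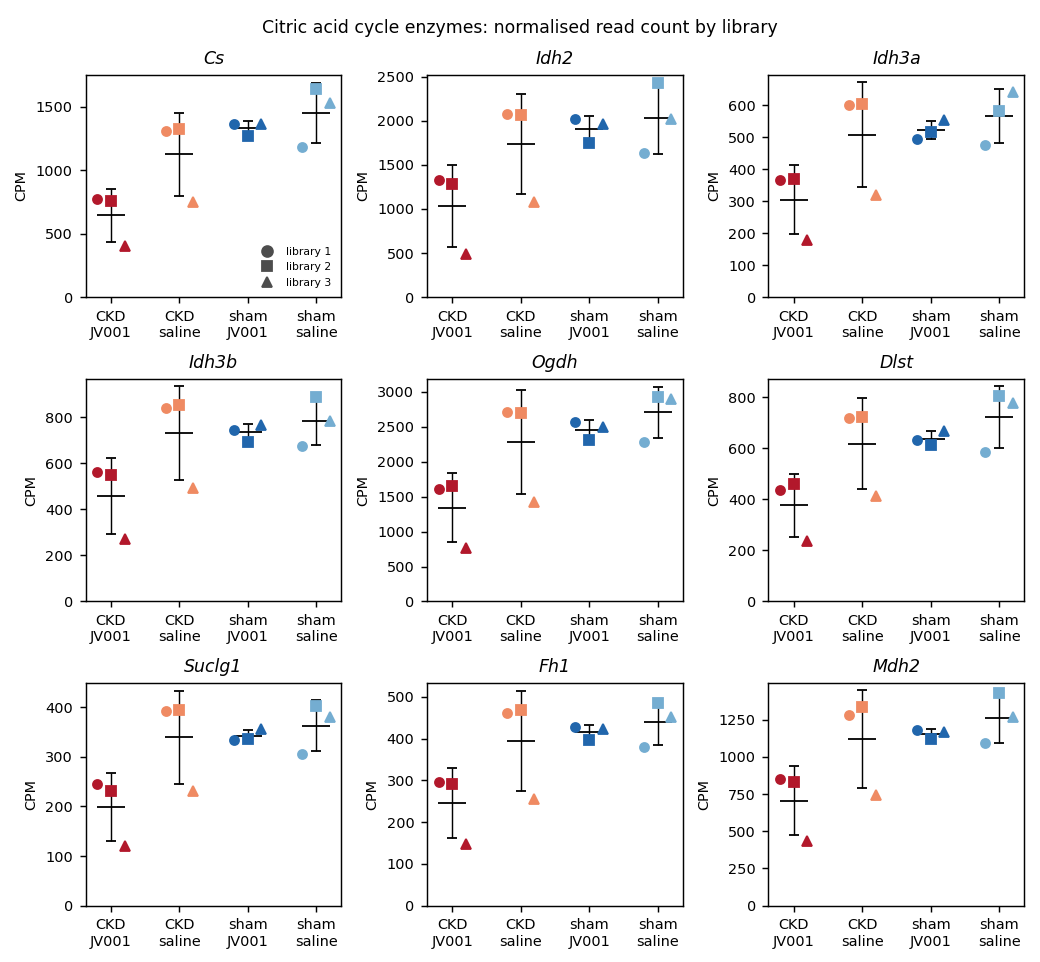
Normalised read count in CPM (vertical axes, from 0) of each of the 9 enzymes in the 12 libraries; points are libraries, with their number as the symbol, and bars give the mean and SD of 3 libraries. CKD JV001 had the lowest mean in every panel, and library 3 of either CKD group lay below libraries 1 and 2 of its group.

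The effect of JV001 in the CKD model was read from CKD JV001 against CKD saline. The 9 enzymes averaged 0.572 times (Cs) to 0.63 times (Mdh2) the CKD saline level, with log2 fold changes of -0.67 to -0.81 and a median of -0.73, against a median of 0.02 over all tested genes. Cs averaged 644 ± 211 CPM in CKD JV001 and 1125 ± 326 CPM in CKD saline (SD, n = 3 each), a log2 fold change of -0.81 (SE 0.29). Suclg1 had -0.77 (SE 0.28) and Mdh2 -0.67 (SE 0.28). By edgeR's quasi-likelihood test with Benjamini-Hochberg adjustment over all genes, 0 of 9 enzymes passed, with adjusted p of 0.276 to 0.285, and the percentage of all genes that passed was 0. At an unadjusted p under 0.05 there were 8 of 9 enzymes, against 18.0% of all genes. DESeq2 called 0 of 9, against 67 of 15004 genes. None of the 9 had CKD groups free of overlap, against 6.04% of all genes with lower values and no overlap.

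The calls turned on library 3 of the CKD groups and on whether the libraries were paired by number. With the library number as a block in a fit of the 2 CKD groups alone, 9 of 9 enzymes passed edgeR as lower in CKD JV001, with adjusted p of 0.011 to 0.013 and a median log2 fold change of -0.74, against 19.9% of all genes called. The p-values of that fit rest on the spread left after removing what same-numbered libraries share, so most of the departure of library 3 is taken out. No label states that libraries of the same number are pairs, and that fit was chosen after the data were seen. The same block over all 12 libraries called 0 of 9. With library 3 of both CKD groups left out, 9 of 9 again passed (adjusted p of 0.020 to 0.027, against 19.9% of all genes). Without CKD saline library 3 alone, 8 of 9 passed at a median of -0.996, against 21.3% of all genes. Without CKD JV001 library 3 alone, the median was -0.46 and 0 of 9 passed. Libraries 1 and 2 of each CKD group were the most alike of their group, although they differed by more than sampling noise, and with their reads summed 0 of 9 passed (adjusted p 0.538).

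The effect of the model without the drug was read from CKD saline against sham saline. The enzymes had log2 fold changes of -0.10 (Suclg1) to -0.37 (Cs), with a median of -0.17, against 0.01 over all genes. Cs averaged 1125 ± 326 CPM in CKD saline and 1450 ± 238 CPM in sham saline (SD, n = 3 each), which is -0.37 (SE 0.29) on the log2 scale. By edgeR's test 0 of 9 enzymes passed (adjusted p of 0.946 to 0.995), as did 0 of all genes. An unadjusted p under 0.05 was found for 0 of 9, against 743 of 15004 genes. The groups overlapped for all 9, while 967 of 15004 genes were lower and 618 higher without overlap. CKD saline libraries 1 and 2 had sham-like counts, and without CKD saline library 3 the median was 0.07 and 8 of the 9 values were positive, Cs excepted at -0.12. Without sham saline library 1 the median was -0.27 and without sham saline library 2 it was -0.057.

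JV001 in mice without the model was read from sham JV001 against sham saline. The groups had log2 fold changes of -0.08 (Fh1) to -0.18 (Dlst) and a median of -0.12, against -0.01 over all genes. Dlst averaged 638 ± 28.8 CPM in sham JV001 and 722 ± 121 CPM in sham saline (SD, n = 3 each). By edgeR's test 0 of 9 enzymes passed (adjusted p 0.9997) and 0 of all genes passed. An unadjusted p under 0.05 was found for 0 of 9, against 426 of 15004 genes. Sham saline library 1 was the lowest of its group in all 9 enzymes, and the median was -0.23 without it and -0.021 without sham saline library 2.

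Under JV001, the model was read from CKD JV001 against sham JV001. The enzymes had log2 fold changes of -0.68 (Idh3b) to -1.05 (Cs) and a median of -0.77, against 0.02 over all genes. Without CKD JV001 library 3 the median was -0.51. Cs averaged 644 ± 211 CPM in CKD JV001 and 1332 ± 54.0 CPM in sham JV001 (SD, n = 3 each), which is 0.483 times the sham JV001 level. Idh2 had -0.88 (SE 0.37) and Ogdh -0.88 (SE 0.32). All 9 enzymes were lower with no overlap of the groups, against 20.1% of all genes. By edgeR's test 0 of 9 passed (adjusted p of 0.096 to 0.164), against 0.0200% of all genes, while 9 of 9 had an unadjusted p under 0.05, against 27.5% of all genes. DESeq2 called 2 of 9, Cs (adjusted p 0.00906) and Ogdh (adjusted p 0.0451), against 13.4% of all genes. With library 3 of both CKD groups left out, 7 of 9 passed edgeR at a median of -0.52, against 9.38% of all genes, and Idh2 and Idh3b did not (adjusted p 0.0520 and 0.0588).

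The interaction asks whether the JV001 difference in the CKD model departs from that in sham mice. The 9 values were -0.54 (Dlst) to -0.68 (Cs), with a median of -0.62, and 0 of 9 passed edgeR (adjusted p 0.840), with 0 of all genes. Suclg1 had -0.68 (SE 0.39), the smallest unadjusted p of the 9, 0.109 in the edgeR fit. The median was -0.34 without CKD JV001 library 3. It was -0.88 without CKD saline library 3, where 8 of 9 had an unadjusted p under 0.05, against 18.0% of all genes, and 0 of 9 passed edgeR. The comparisons share groups, so their directions are not independent of each other.

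**Figure D2:**
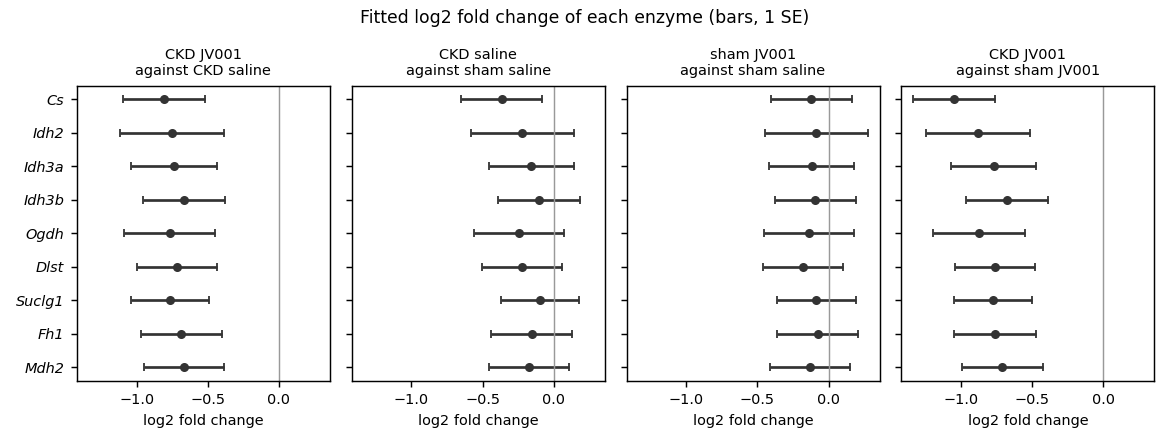
Fitted log2 fold change (horizontal axes) of each enzyme in the 4 comparisons, with bars of 1 SE from edgeR's fit over 12 libraries. The points for CKD JV001 against CKD saline and against sham JV001 lie between -0.67 and -1.05, and those of the other comparisons between -0.08 and -0.37.

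The enzymes' level went with that of the heart muscle markers. The mean log2 CPM of the 9 enzymes had a range of 1.85 over the 12 libraries, with 8.17 in CKD JV001 library 3 as the lowest and 10.02 in sham saline library 2 as the highest. Relative to the mean of the 12 ventricular markers, the same level lay between -2.54 and -2.24, a range of 0.30. That relative level averaged -2.43 ± 0.16 in CKD JV001, against -2.44 ± 0.05 in CKD saline, -2.48 ± 0.06 in sham JV001 and -2.49 ± 0.06 in sham saline (SD, n = 3 each). With libraries scaled to those markers, the enzymes' log2 fold changes were -0.05 to 0.09 for CKD JV001 against CKD saline and -0.16 to 0.19 for CKD JV001 against sham JV001, and 0 of 9 passed in any comparison. The scaling moved the median of all genes to 0.82 and 1.07 in those comparisons. It shifts all genes of a library nearly alike, so the distance of the enzymes from that median is not a separate result. In bulk RNA, fewer cells of a type and less RNA per cell cannot be told apart.

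Markers of several other cell types were higher in CKD JV001, where the enzymes were lower. The 8 fibroblast markers, such as Dcn and Col1a1, summed to 1051 to 1415 CPM in CKD JV001, against 234 to 893 CPM in CKD saline, 256 to 521 CPM in sham JV001 and 149.8 to 511 CPM in sham saline. All 8 were higher in CKD JV001 than in CKD saline with no overlap, against 8.22% of all genes. They were also higher than in sham JV001 with no overlap, against 22.9% of all genes. The 8 macrophage markers summed to 505 to 916 CPM in CKD JV001, against 98.3 to 494 CPM in CKD saline, 77.6 to 251.2 CPM in sham JV001 and 38.2 to 183 CPM in sham saline. In either list the top of each CKD range was library 3. The 8 endothelial markers summed to 2357 to 2700.0 CPM in CKD JV001, against 879 to 2993 CPM in CKD saline, 1235 to 1400.1 CPM in sham JV001 and 429 to 1563 CPM in sham saline. Neutrophil markers reached 317 CPM in CKD JV001 library 3 and 81.3 CPM in CKD saline library 3, against at most 6.37 CPM in the sham groups, where Mmp8 was at 0 in 5 of 6 libraries. Erythroid markers summed to 135 to 333 CPM in CKD JV001, 47.6 to 664 CPM in CKD saline, 11.3 to 52.4 CPM in sham JV001 and 10.3 to 57.2 CPM in sham saline. The 4 atrial markers (Nppa, Myl4, Myl7 and Sln) summed to 635 to 1002 CPM in CKD JV001, against 178 to 289.6 CPM in CKD saline, 838 to 3076 CPM in sham JV001 and 387 to 4137 CPM in sham saline. All 4 were higher in CKD JV001 than in CKD saline with no overlap, but they did not follow the enzymes over the 12 libraries. Sham saline library 2, the highest for the enzymes, had an atrial sum of 387 CPM. Libraries 1 and 3 of that group had 4137 and 1393 CPM. The part of these cells in the enzymes' differences was not tested.

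**Figure D3:**
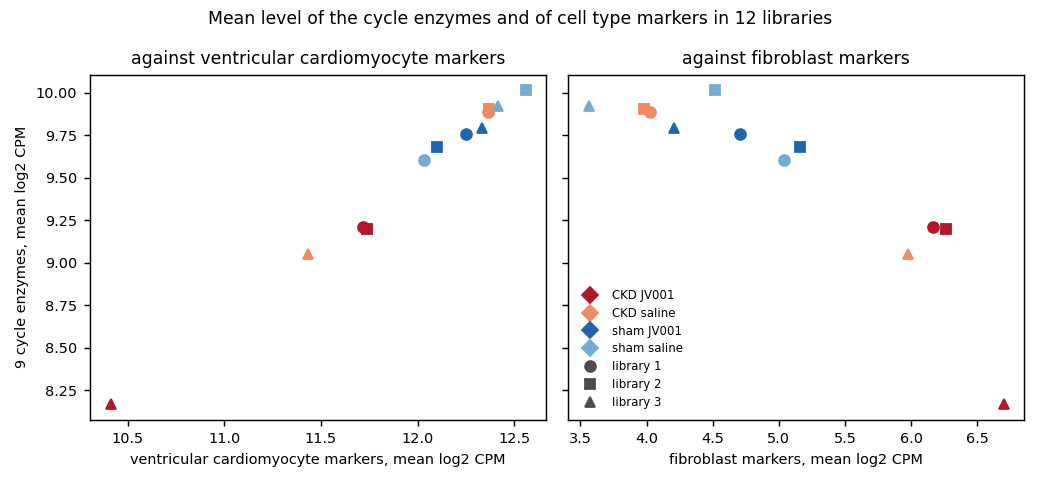
Mean log2 CPM of the 9 enzymes (vertical axis) against the mean log2 CPM of ventricular cardiomyocyte markers (left) and of fibroblast markers (right) in the 12 libraries; colour gives the group and symbol the library number. CKD JV001 library 3 sits at 8.17 for the enzymes and 10.41 for the ventricular markers, the lowest library on both.

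Relative to the other 8 enzymes, Cs lay lower in the CKD libraries than in the sham libraries. A difference between genes of 1 library does not depend on how that library was scaled. The log2 CPM of Cs minus the mean of the other 8 was 0.43, 0.41 and 0.54 in CKD JV001 and 0.52, 0.52 and 0.56 in CKD saline, against 0.73, 0.71 and 0.70 in sham JV001 and 0.68, 0.75 and 0.74 in sham saline. All 6 CKD libraries lay below all 6 sham libraries, library 3 of either CKD group included. The share of all genes that separate 6 libraries from 6 in this way was not computed. The difference of the means was -0.26 for CKD JV001 against sham JV001 and -0.19 for CKD saline against sham saline, and in both comparisons a two-sided exact permutation test of 3 against 3 gave p = 0.1, the smallest it can give, or 0.36 after adjustment over the 36 such tests. Relative to the mean of the 9 enzymes, 1.35% of all genes were lower with no overlap in CKD JV001 against sham JV001 and 2.17% in CKD saline against sham saline. The comparison with the other 8 was chosen after the values were seen, and Cs was picked from the 9 in the same way.

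The pair of enzymes on either side of oxaloacetate was also compared on the length-scaled values. Within a library these differ from the CPM values only by a fixed offset for gene length. They restate the same reads and are no second test of Cs, and no share over all genes was computed for this difference. The log2 FPKM of Cs minus that of Mdh2 was -1.35 to -1.34 in CKD JV001, against -1.23 to -1.19 in CKD saline, -1.03 to -0.99 in sham JV001 and -1.10 to -0.94 in sham saline. The CKD ranges did not overlap each other, and both lay below the sham ranges, which overlapped. Cs made up 10.97% ± 0.387 of the summed FPKM of the 9 enzymes in CKD JV001 and 11.6% ± 0.114 in CKD saline, against 13.0% ± 0.0497 in sham JV001 and 13.0% ± 0.356 in sham saline (SD, n = 3 each).

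Idh3b went the other way. Its log2 CPM minus the mean of the other 8 lay between -0.19 and -0.09 in the 6 CKD libraries, against -0.35 to -0.23 in the 6 sham libraries, again with no overlap. Here too the share of all genes that separate 6 libraries from 6 was not computed. Relative to the mean of the 9 enzymes, 67.0% of all genes were higher with no overlap in CKD JV001 against sham JV001, 7.09% in CKD saline against sham saline and 17.2% in CKD JV001 against CKD saline, so being higher without overlap in the first of these is what most genes showed. Each comparison of 3 against 3 without overlap in this paragraph had an exact permutation p of 0.1, the smallest possible, and 0.36 after adjustment. Mdh2 was higher relative to the others in CKD JV001 than in CKD saline and in sham JV001, by 0.08 and 0.12, with no overlap. Fh1 was higher by 0.06 in both of those comparisons, also with no overlap. Suclg1 was higher relative to the others by 0.12 in CKD saline than in sham saline with no overlap. Idh2 had 1 library that stood apart, with 0.88 in CKD JV001 library 3 and at least 1.19 in the sham libraries. Ogdh was lower by 0.08 in CKD JV001 than in sham JV001 with no overlap, against the 1.35% of all genes given for Cs. Apart from Cs and Idh3b, the ranges of the 6 CKD and the 6 sham libraries overlapped for every enzyme.

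**Figure D4:**
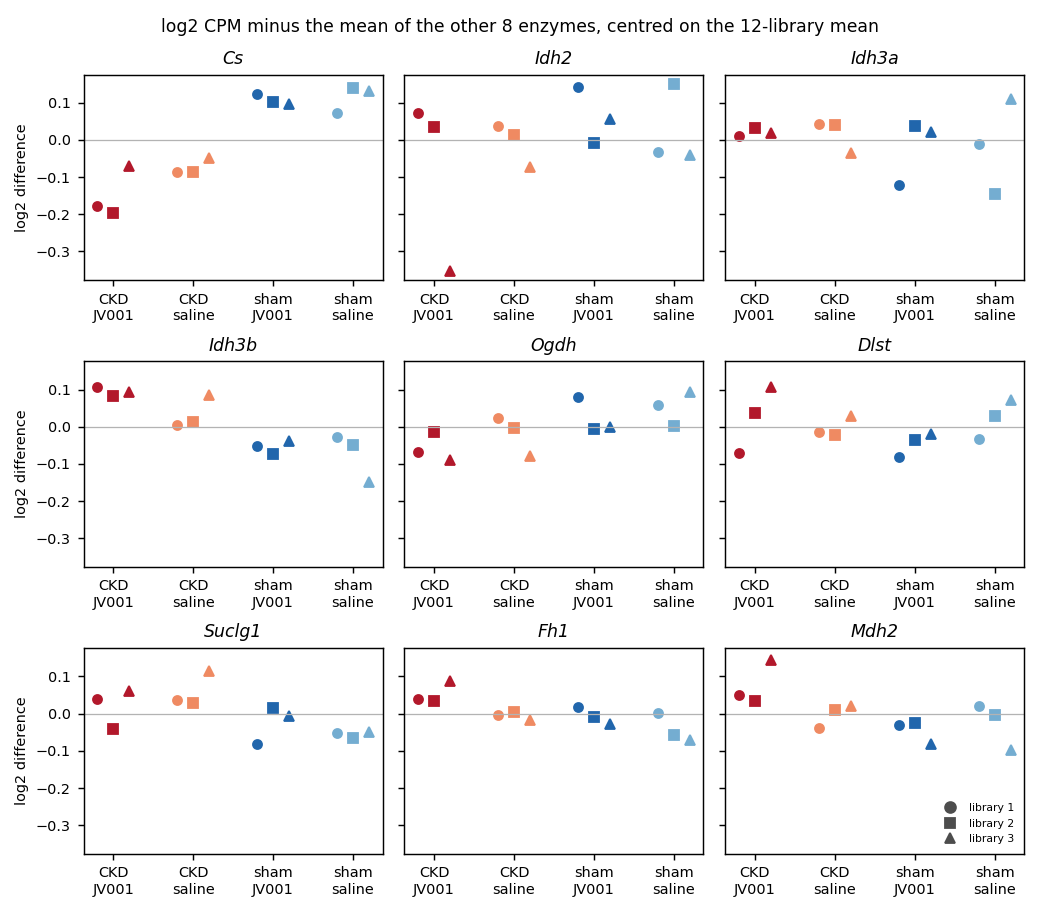
The log2 CPM of each enzyme minus the mean of the other 8 in the same library (vertical axes, log2 difference, centred on each enzyme's mean over 12 libraries), by group, with the library number as the symbol. The 6 CKD libraries of Cs lie below its 6 sham libraries, and those of Idh3b above.

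Levels of different genes were compared in FPKM, which divides reads by gene length. Mdh2 was the highest in every library, with a median of 887 FPKM over the 12. Idh3b came next with 468 FPKM and then Cs with 403 FPKM, in every library too. Idh2 (330 FPKM) and Ogdh (315 FPKM) followed and changed places between libraries. Fh1 (250.1 FPKM), Suclg1 (238 FPKM) and Dlst (222 FPKM) traded places as well, and Idh3a (209 FPKM) was the lowest in every library. Neighbours in this order overlapped in their group ranges, except Mdh2 over Idh3b in CKD saline, sham JV001 and sham saline and, in sham JV001, Cs over Idh2 and Ogdh over Fh1. The lengths that the deposited FPKM imply run from 1282 bases for Mdh2 to 7669 bases for Ogdh, with 5556 bases for Idh2, and another gene model would change the order.

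**Figure D5:**
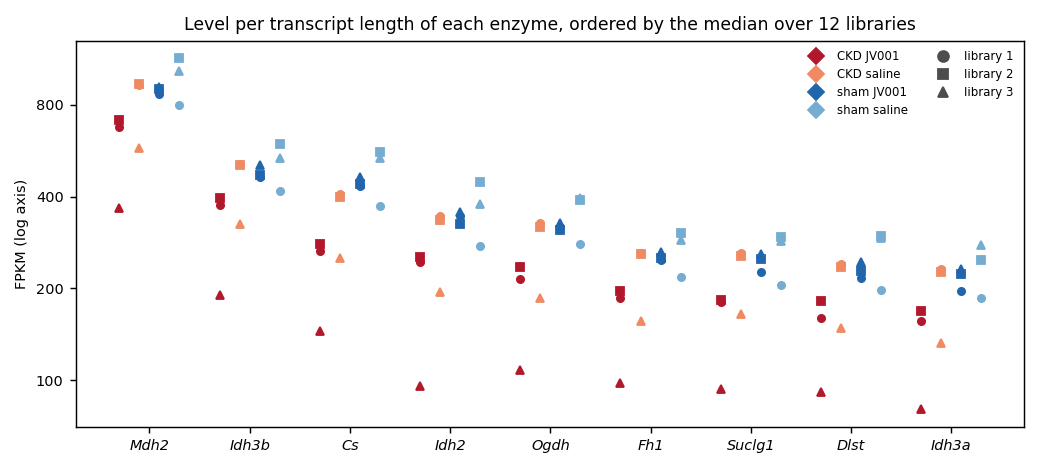
FPKM (vertical log axis) of each enzyme in the 12 libraries, with enzymes ordered by their median; colour gives the group and symbol the library number. Mdh2 is highest at a median of 887 FPKM and Idh3a lowest at 209 FPKM.

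The subunits of the NAD-linked isocitrate dehydrogenase did not separate the groups. The log2 FPKM of Idh3a minus that of Idh3b was -1.27 to -1.23 in CKD JV001, against -1.29 to -1.15 in CKD saline, -1.24 to -1.09 in sham JV001 and -1.27 to -0.95 in sham saline, and the ranges overlapped. Idh2 minus Idh3a was 0.26 to 0.64 in CKD JV001, 0.55 to 0.58 in CKD saline, 0.55 to 0.82 in sham JV001 and 0.45 to 0.85 in sham saline, with 0.26 in CKD JV001 library 3.

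The genes most like the enzymes over the 12 libraries were also mitochondrial. By the root mean square difference from the enzymes' mean centred log2 profile, the nearest was Atp5a1 (0.022), the alpha subunit of ATP synthase. Next came Immt (0.027), which shapes the cristae, and Vdac1 (0.028), a channel of the outer membrane. Uqcrc2 (0.034), a core subunit of complex III, and Slc25a12 (0.039), the aspartate and glutamate carrier of heart, followed. The median of this measure over all tested genes was 0.634. Of the 9 enzymes, Fh1 was nearest to their mean profile at 0.041, and Idh2 and Cs farthest at 0.124 and 0.119.

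Further enzyme genes of the cycle lay with the members. All 8 on this list (Idh3g, Dld, Sucla2, Suclg2, Sdha, Sdhb, Sdhc and Sdhd) had negative values in CKD JV001 against CKD saline, with a median of -0.67 and 0 of 8 called. Sucla2, the beta subunit of the ATP-forming succinyl-CoA ligase, averaged 277 ± 103 CPM in CKD JV001 and 497 ± 159 CPM in CKD saline (SD, n = 3 each), a log2 fold change of -0.84. Suclg2, its GTP-forming counterpart, had -0.68 and Sdha, the flavoprotein of succinate dehydrogenase, -0.76, all at adjusted p 0.276 in edgeR. In CKD JV001 against sham JV001 the median was -0.81, with 8 of 8 lower without overlap, against 20.1% of all genes, and 0 of 8 called, against 0.0200%.

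Genes of pyruvate entry into the cycle and of its control had a median of -0.76 in CKD JV001 against CKD saline, with 12 of 13 negative and 0 called. The list holds genes of both directions, so its median is not one of entry alone. The kinases that shut pyruvate dehydrogenase had -0.64 (Pdk1), -0.73 (Pdk2), 1.06 (Pdk3, the positive one) and -0.73 (Pdk4). Pdha1, a subunit of pyruvate dehydrogenase, had -0.78, the phosphatase Pdp1 -0.82 and the phosphatase regulator Pdpr -0.89 (SE 0.27). Pdpr averaged 73.0 ± 19.2 CPM in CKD JV001 and 135 ± 42.4 CPM in CKD saline, with no overlap. Lower values with no overlap held for 6.04% of all genes in that comparison. Pdk4, the kinase that shuts pyruvate dehydrogenase when fat is burned, was named after its values were seen. It averaged 192 ± 69.9 CPM in CKD JV001, 317 ± 84.8 CPM in CKD saline, 1274 ± 906 CPM in sham JV001 and 357 ± 120.0 CPM in sham saline (SD, n = 3 each). Its log2 fold change was -2.73 (SE 0.51) in CKD JV001 against sham JV001 (edgeR adjusted p 0.0674). In sham JV001 against sham saline it was 1.83 (SE 0.49, edgeR adjusted p 0.9997). The groups did not overlap in either comparison. In the first, 20.1% of all genes were lower without overlap, and in the second 854 of 15004 genes were higher without overlap.

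Anaplerotic enzymes, which refill the cycle's intermediates, had a median of -0.65 in CKD JV001 against CKD saline, with 11 of 11 negative and 0 called. Got2, the mitochondrial aspartate aminotransferase, had -0.85, Pccb, a propionyl-CoA carboxylase subunit, -0.78 and Gpt2, an alanine aminotransferase, -0.65 (SE 0.18), and these 3 of the 11 were lower with no overlap between the CKD groups, against 6.04% of all genes. Of the 5 counterparts outside the matrix, 4 were negative and 0 called, with Aco1 at -0.63 (SE 0.17), Mdh1 at -0.68 and Got1 at -0.73. Acly, which turns citrate back into acetyl-CoA in the cytosol for lipid synthesis, was the positive one at 0.49 (SE 0.25). Of the 6 carriers, 5 were negative and 0 called, among them Slc25a11 at -0.71, Slc25a12 at -0.73 and Slc25a13 at -0.76, and the positive one was the citrate carrier Slc25a1 at 0.53. Acly averaged 62.0 ± 13.2 CPM in CKD JV001 and 35.3 ± 0.731 CPM in sham JV001, and Slc25a1 averaged 6.83 ± 0.236 CPM in CKD JV001 and 2.82 ± 0.969 CPM in sham JV001 (SD, n = 3 each), both without overlap. Neither passed edgeR in that comparison (adjusted p 0.108 and 0.0937), and Acly and Slc25a1 were named after their values were seen. In CKD JV001 against sham JV001, 22.9% of all genes were higher without overlap.

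Lipoylation, which Dlst needs for its catalytic arm, and the assembly of succinate dehydrogenase had a median of -0.50 in CKD JV001 against CKD saline, with 9 of 9 negative and 0 called. Lias, the lipoyl synthase, had -0.61, Lipt1 -0.62 and the assembly factor Sdhaf2 -0.43. Calcium entering the matrix stimulates Idh3 and the Ogdh complex. Of the 4 calcium entry genes on the list, 3 were negative and 0 called. The uniporter pore Mcu had -0.39 (SE 0.16) and averaged 12.1 ± 2.08 CPM in CKD JV001 and 15.8 ± 1.21 CPM in CKD saline (SD, n = 3 each), with no overlap. Its gatekeeper Micu2 had -0.49 (SE 0.30), and Smdt1, a small subunit that the uniporter needs, had -0.33 (SE 0.25). Of all genes, 6.04% were lower with no overlap between the CKD groups, as Mcu was.

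In CKD saline against sham saline and in sham JV001 against sham saline, 0 genes of these 7 lists passed edgeR. How reads shared with related genes were counted is not stated and was not tested. The Cs relative Csl had at most 30 reads, or 0.0682% of the count of Cs, and Ogdhl at most 9.98% of that of Ogdh.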

How the data were processed

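Per the labels' protocols, RNA from isolated cardiomyocytes was extracted with an RNeasy plus kit, and polyadenylated RNA entered VAHTS Universal V6 libraries. The submitters' processing notes name fastp, HISAT2, HTSeq and the build GRCm39. Versions, gene annotation and strand use are not stated in these notes. The authors deposited raw counts per gene symbol and FPKM of the same genes. The counts were tested with edgeR 4.0.16 (TMM factors, filterByExpr at 10 counts, glmQLFit and glmQLFTest) in R 4.3.3, in 1 fit of 4 group means over all 12 libraries, with Benjamini-Hochberg adjustment over 15004 genes and a threshold of 0.05. CPM used TMM-scaled totals, and log2 CPM a prior count of 2. The deposited FPKM served for levels between genes. DESeq2 1.42.0 and limma 3.58.1 gave alternatives. The fits were tested on simulated data. Totals were 25233561 to 37000337 reads, and each member had at least 4122 reads in every library.

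The members and gene lists were chosen with earlier results of these data known, and 2 genes of the pathway lists are not reported here. All 9 members are named in all comparisons, and of each pathway list the 3 genes with the smallest p in CKD JV001 against CKD saline, whichever way they moved. In the fit of the CKD groups alone the replicate numbers were used as pairs, since every same-numbered pair of libraries correlated above 0.1. No label states this pairing, and the correlations cannot decide it, because library 3 stood apart in both CKD groups.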

Additional observations from a re-analysis of the deposited data

How the results depend on the processing

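With libraries 1 and 2 of the CKD groups agreeing closely and library 3 apart, the calls changed with library 3. The alternatives that sum libraries, scale to ventricular markers or block the CKD groups alone were chosen after seeing the data. Over all settings, 949 values of single enzymes kept their direction and side of the threshold, 36 passed where the fit over 12 libraries had not, and 50 turned sign. The replicate block over all 12 libraries called 0 genes in CKD JV001 against sham JV001, and the replicate block in the CKD groups only called 2850 genes and 9 of 9 enzymes in CKD JV001 against CKD saline; the replicate block changed no other call.

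For CKD JV001 against sham JV001, where 3 genes were called, there were 7 with RLE factors, 5 with no filter, 12 with the stricter filter, 792 with only the groups compared, 74 and 10 with limma on log2(FPKM + 1) and log2(FPKM + 0.1), 1433 with library 3 of both CKD groups left out (7 of 9 enzymes), and 0 with summed libraries or ventricular scaling. DESeq2 called 2016 genes there (2 of 9 enzymes), 67 in CKD JV001 against CKD saline, 54 in CKD saline against sham saline, 3 in sham JV001 against sham saline and 2 in the interaction. Leaving out library 3 of both CKD groups called 3043 genes and 9 of 9 enzymes in CKD JV001 against CKD saline. Leaving out each library in turn gave 0 to 3287 genes and 0 to 8 enzymes in that comparison, and 0 to 1612 genes and 0 to 1 enzymes in CKD JV001 against sham JV001; the highest values came without CKD saline library 3.

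Scaling to ventricular markers put the enzymes' median log2 fold change at 0.022 in CKD JV001 against CKD saline, 0.10 in CKD JV001 against sham JV001 and 0.025 in the interaction. Single values turned positive under it. In CKD JV001 against CKD saline they were 0.022 for Idh3a, 0.070 for Idh3b, 0.048 for Dlst, 0.073 for Fh1 and 0.092 for Mdh2. In CKD JV001 against sham JV001 they were 0.094 for Idh3a, 0.19 for Idh3b, 0.13 for Dlst, 0.10 for Suclg1, 0.11 for Fh1 and 0.17 for Mdh2. In CKD saline against sham saline they were 0.017 for Idh2, 0.069 for Idh3a, 0.14 for Idh3b, 0.025 for Dlst, 0.15 for Suclg1, 0.078 for Fh1 and 0.067 for Mdh2. In sham JV001 against sham saline they were 0.00011 for Cs, 0.039 for Idh2, 0.022 for Idh3b, 0.033 for Suclg1 and 0.037 for Fh1. In the interaction they were 0.025 for Idh3a, 0.048 for Idh3b, 0.0038 for Ogdh, 0.10 for Dlst, 0.036 for Fh1 and 0.11 for Mdh2. The scaling itself moved these values, since it removes what the enzymes share with the markers. With Ttn, Ryr2, Myh6 and Myh7 out of the marker list, the enzymes' level relative to the markers in CKD saline against sham saline was -0.087, against 0.047 with the whole list.

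In CKD saline against sham saline, leaving out library 3 of both CKD groups gave 0.052 for Idh2, 0.11 for Idh3a, 0.14 for Idh3b, 0.025 for Ogdh, 0.019 for Dlst, 0.14 for Suclg1, 0.10 for Fh1 and 0.073 for Mdh2. Leaving out each library in turn gave -0.36 to 0.051 for Idh2, -0.30 to 0.11 for Idh3a, -0.22 to 0.14 for Idh3b, -0.39 to 0.024 for Ogdh, -0.36 to 0.018 for Dlst, -0.21 to 0.14 for Suclg1, -0.29 to 0.10 for Fh1 and -0.31 to 0.072 for Mdh2. In sham JV001 against sham saline it gave -0.22 to 0.070 for Idh2, -0.19 to 0.013 for Idh3b and -0.18 to 0.0068 for Fh1. The cause of these changes of sign was not tested beyond the libraries named.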
